A study of Homo sapiens with 6 samples.

Results

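Aminoacyl-tRNA synthetases load each transfer RNA with its amino acid, and 36 of their genes were followed here after knockdown of MEP50 in LNCaP, an androgen-sensitive cell line derived from a human prostate carcinoma. The members were the rows of the gene count table that carry 1 of 36 synthetase symbols, in the older spelling of the files, and that lie on a chromosome and not on an alternative scaffold. They made up 36 of 63299 genes, of which 20 encode cytosolic enzymes and 16, with symbols ending in 2, encode mitochondrial enzymes. The rule uses symbols and positions only. All 36 passed the filter on low counts, which left 21101 genes for testing.

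The series compared LNCaP cells labelled MEP50 KD (Dox+), in which a short hairpin RNA lowers MEP50, with cells labelled No KD (Dox-). MEP50, encoded by WDR77, is the partner protein of the arginine methyltransferase PRMT5. Each group had 3 libraries of bulk RNA sequencing, called knockdown and control here, and the series text calls them biological replicates. The labels give no hairpin sequence, doxycycline dose, treatment time or clone, and no library here had doxycycline without the hairpin, so the drug and the knockdown cannot be told apart.

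Libraries held 18568002 to 36234784 counts on genes, and their log2 levels correlated pairwise at 0.9697 to 0.9895 across genes. WDR77 fell from 49.28, 47.16 and 36.71 CPM (reads on the gene, scaled for library depth) in control replicates 1, 2 and 3 to 15.05, 14.03 and 12.73 in the knockdown replicates (log2 fold change -1.67, SE 0.163, edgeR adjusted p 0.00131). All 8 LNCaP markers examined were detected, but they were not level between the groups: their median log2 fold change was -0.394, and KLK3 (-1.48), KLK2 (-1.01) and TMPRSS2 (-1.14) were called lower, KLK3 in all 6, KLK2 in 2 and TMPRSS2 in 1 of the 6 fits that left out a library. These calls are 37.5% of the markers, beside 4.88% of all tested genes. In 6 of the 8 every knockdown library was below every control library, against 17.0% of all tested genes. The part of these marker differences in the results was not tested. Of 8 markers of stromal, endothelial, leukocyte and basal cells, KRT5 had 0 reads, and COL1A2, PECAM1, CDH5, PTPRC and TP63 were at or near 0. Their summed level was 10.43 to 15.48 CPM in knockdown and 6.557 to 14.39 in control, nearly all of it COL1A1 and COL3A1. COL3A1 was at 3.588, 1.027 and 0.6411 CPM in knockdown and 1.125, 0.0333 and 0.1427 in control, and its part in the results was not tested.

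In the cytosol, synthetases serve the ribosomes that translate nuclear messages, and in mitochondria a second set, also encoded in the nucleus and imported, serves the translation of mitochondrial messages. GARS and KARS supply both places from a single gene, and no mitochondrial glutamine enzyme exists, because glutamine is attached there by an indirect route. DARS, EPRS, IARS, KARS, LARS, MARS, QARS and RARS assemble into a multi-synthetase complex, while the other cytosolic enzymes act outside it. When amino acids run short, the kinase GCN2 (gene EIF2AK4) phosphorylates the initiation factor eIF2, and the transcription factor ATF4 then induces amino acid synthesis genes, transporters and many cytosolic synthetases.

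ATF4 binds composite elements with partners of the C/EBP family, and the core letters of such an element, TGATGNAA, were counted on both strands of RefSeq promoter windows (GRCh38.p14). A window ran from 250 bases before to 50 after a start site. Windows existed for 30 of the 36 members, 39 windows in all, because some genes have several start sites, whose windows can overlap. The word lay in 7 of 21 cytosolic windows (33.3%), each of a different gene, in 1 of 18 mitochondrial windows (5.56%) and in 1270 of 35116 windows of all genes (3.62%). AARS2, DARS, LARS, VARS, VARS2 and YARS had no window. The 8 matches are shown because the levels of these genes across libraries are set beside them further on. Each is printed on the strand of its gene, 5′ to 3′, with the matching letters in capitals, and TTGCATCA and TTTCATCA are matches on the opposite strand.
AARS (chr16:70289675-70289704, minus strand): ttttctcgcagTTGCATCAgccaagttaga
CARS (chr11:3057407-3057436, minus strand): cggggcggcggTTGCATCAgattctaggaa
GARS (chr7:30594834-30594863, plus strand): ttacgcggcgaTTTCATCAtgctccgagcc
IARS (chr9:92293692-92293721, minus strand): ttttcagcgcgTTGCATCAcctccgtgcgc
MARS (chr12:57488053-57488082, plus strand): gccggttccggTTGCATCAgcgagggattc
NARS (chr18:57621804-57621833, minus strand): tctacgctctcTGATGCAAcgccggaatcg
TARS (chr5:33440956-33440985, plus strand): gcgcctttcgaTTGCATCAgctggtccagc
YARS2 (chr12:32756076-32756105, minus strand): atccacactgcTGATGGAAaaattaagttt
In CARS, GARS, IARS, MARS, NARS and TARS the match began within 33 bases of a start site, and in AARS and YARS2 it began 187 and 197 bases before it. A match describes these letters only and does not show that a factor binds there.

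Every cytosolic member had a lower fitted level in knockdown cells, by at most 1.61-fold. TARSL2, a cytosolic enzyme that is not a member, went the other way and is described further on. All 20 had a fitted log2 fold change (knockdown minus control) below 0, against 49.8% of all tested genes, with a median of -0.348 against 0.002 for all tested genes. The range ran from -0.691 for VARS to -0.161 for SARS. Only VARS passed the edgeR quasi-likelihood test at an adjusted p under 0.05 (1 of 20 lower and 0 higher, where 4.88% of all tested genes were called lower and 2.72% higher). In bulk RNA, less of these transcripts per cell and fewer cells that carry them cannot be told apart.

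Libraries with the same replicate number deviated together across the transcriptome, and with that number as a block in the fit 13 of the 20 cytosolic genes fell (65%). The block called 14.9% of all tested genes lower and 11.2% higher, so the count of 13 stands against a higher background. The 13 were AARS, CARS, EPRS, FARSA, FARSB, GARS, HARS, IARS, MARS, QARS, VARS, WARS and YARS, and the remaining 7, DARS, KARS, LARS, NARS, RARS, SARS and TARS, had block fold changes from -0.27 for NARS to -0.15 for SARS. In 15 of the 20 genes the knockdown library was below the control library of the same number in all 3 pairs, against 29.0% of all tested genes. Pair medians were -0.426, -0.242 and -0.379. In 7 genes (EPRS, FARSA, HARS, IARS, KARS, QARS and VARS) every knockdown library was below every control library, against 17.0% of all tested genes. The median of the list was -0.195 without control replicate 3, and it lay between -0.435 and that value over the 6 fits that left out 1 library. All 20 stayed below 0 with RLE and with upper-quartile scaling, and SARS alone crossed 0 when a library was left out, reaching 0.179.

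**Figure D1:**
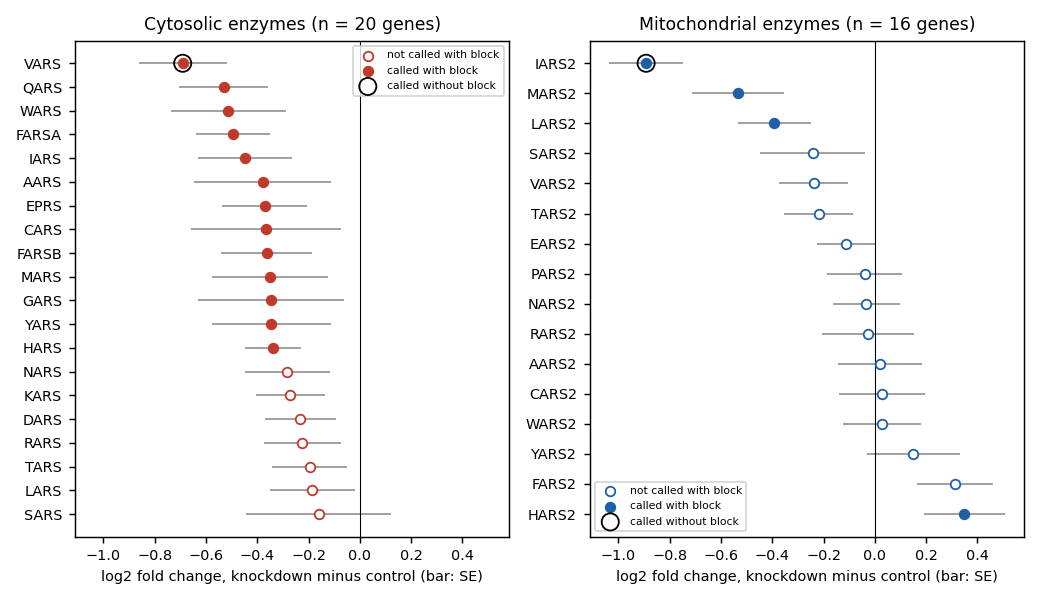
Log2 fold change (knockdown minus control) of each synthetase gene on the horizontal axis, with the standard error as a bar, for 20 cytosolic and 16 mitochondrial enzymes. Filled points were called with the replicate block, ringed points without it, and all 20 cytosolic points lie left of 0 while the mitochondrial points run from -0.892 for IARS2 to 0.349 for HARS2.

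VARS, the valyl-tRNA synthetase (ENSG00000204394.12, chr6:31777518-31795953, hg38), had the largest fitted difference of the cytosolic genes. Its levels were 187.7, 250.3 and 179.0 CPM in control replicates 1, 2 and 3 and 112.9, 150.8 and 118.4 CPM in knockdown. The groups did not overlap, and replicate 2 was highest in both. VARS fell 1.61-fold. Its mean was 206 ± 38.9 CPM in control and 127 ± 20.4 CPM in knockdown (SD, n = 3 in each), with a log2 fold change of -0.69 (SE 0.171, edgeR adjusted p 0.0433, and 0.000248 with the block). The call was lost in each of the 6 fits that left out 1 library (adjusted p 0.0592 to 0.129) with upper-quartile scaling (0.0759) and with a mean of at least 1 CPM as the filter (0.051).

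QARS, which charges glutamine tRNA within the complex (ENSG00000172053.16, chr3:49095932-49105135), was at 187.5, 144.6 and 141.2 CPM in control and at 133.0, 101.7 and 92.91 in knockdown. Every knockdown library was below every control library, and the 3 pair differences were alike, at -0.496, -0.508 and -0.603 log2. QARS had a log2 fold change of -0.53 (SE 0.173) that was not called without the block (adjusted p 0.0951) and was called with it (0.00136). FARSA, the catalytic subunit of the phenylalanine enzyme, was at 212.4, 228.2 and 162.6 CPM in control and at 147.3, 142.4 and 138.8 in knockdown. Its groups did not overlap either, and the control libraries were spread more widely than the knockdown libraries. The log2 fold changes of FARSA and of FARSB, the other subunit of that tetramer, were -0.49 and -0.36 (adjusted p 0.0718 and 0.247, and 0.00623 and 0.0204 with the block). FARSA passed the threshold in DESeq2 and in the fit without control replicate 3 (adjusted p 0.0395).

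IARS, the isoleucine enzyme of the complex, was at 719.1, 739.1 and 964.5 CPM in control and at 464.3, 621.1 and 690.8 in knockdown. The groups did not overlap, and replicate 3 was highest in both. EPRS, a single chain that charges both glutamate and proline tRNAs, was at 626.5, 625.4 and 847.1 CPM in control and at 465.0, 580.5 and 577.7 in knockdown, again without overlap. IARS and EPRS had log2 fold changes of -0.45 and -0.37 (adjusted p 0.17 and 0.204, and 0.0123 and 0.0397 with the block). WARS, the tryptophan enzyme, which interferon is known to induce, was at 159.7, 147.2 and 219.9 CPM in control and at 96.87, 107.6 and 164.8 in knockdown. Its groups overlapped because knockdown replicate 3 was above control replicates 1 and 2, and its log2 fold change was -0.51 (adjusted p 0.197, and 0.00233 with the block). In WARS, 10.6% of annotated exon bases lie opposite exons of other genes, and in MARS 12.4% lie opposite ARHGAP9 and DDIT3. No source used here states whether counting used strand, so reads of such partners cannot be told apart.

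Enzymes inside and outside the multi-synthetase complex had similar medians. For the 8 complex genes the median log2 fold change was -0.310, with 0 called lower without the block and 4 with it (EPRS, IARS, MARS and QARS). Among these 8, 2 had an unadjusted edgeR p under 0.05 without the block in the lower direction (25%, beside 14.3% of all tested genes). For the 12 genes outside it the median was -0.354, with 1 called lower without the block and 9 with it. With the block these are 50% and 75%, beside 14.9% of all tested genes. The 3 scaffold proteins of the complex, AIMP1, AIMP2 and EEF1E1, were called in neither fit, with log2 fold changes of -0.09, -0.14 and -0.08 (block adjusted p 0.652, 0.34 and 0.839). No test between the 2 subgroups was made.

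In control cells, cytosolic synthetase transcripts were the more abundant set per length. Per kilobase of annotated exon, their control levels had a median of 53.9 CPM, from 10.6 for CARS to 186 for AARS, with NARS at 134, EPRS at 128 and IARS at 109. The mitochondrial set had a median of 12.5 CPM per kilobase, from 1.94 for SARS2 to 69.0 for IARS2. The next highest mitochondrial gene was LARS2 at 29.9, and only IARS2 exceeded the cytosolic median. SARS2 shares 46.2% of its exon bases, and VARS2 22%, with another gene on the same strand (CTC-360G5.8 and GTF2H4), where reads may have been left uncounted, so their levels are uncertain.

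**Figure D2:**
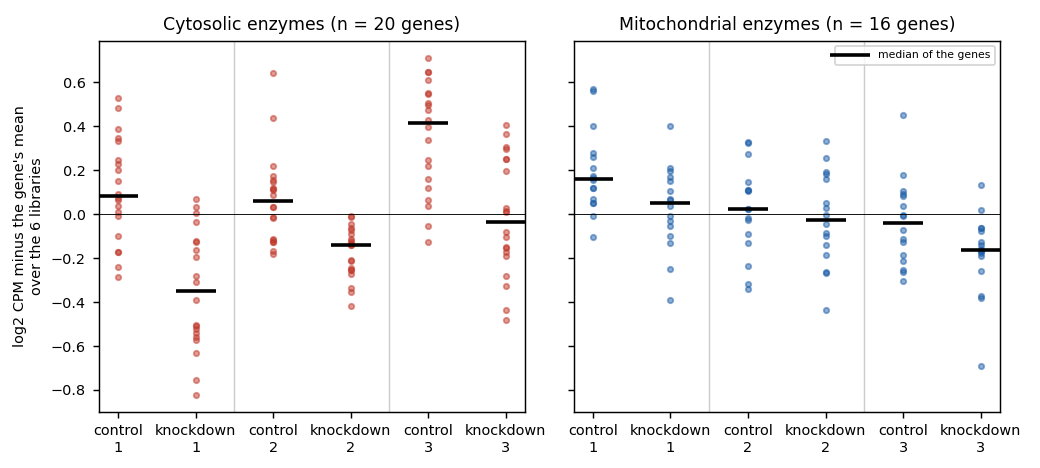
Level of each synthetase gene in each library, as log2 CPM minus the mean of that gene over the 6 libraries, with a black bar at the median of the genes. The cytosolic median of each knockdown library was below that of the control library of the same number, and the highest, at 0.414, was in control replicate 3, whereas the mitochondrial medians stayed between -0.163 and 0.161.

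Mitochondrial synthetases did not share one direction. Their median log2 fold change was -0.036, with 10 of 16 genes below 0 and 6 above, and pair medians of -0.105, -0.044 and -0.093. Without the block 1 gene, IARS2, was called lower and 0 higher. Of the 16, 3 (18.8%) had an unadjusted edgeR p under 0.05 in the lower direction and 0 in the higher, beside 14.3% and 10.4% of all tested genes. With the block IARS2, LARS2 and MARS2 fell (3 of 16, or 18.8%, beside 14.9% of all tested genes) and HARS2 rose. Every knockdown library was below every control library in IARS2, LARS2 and MARS2 (18.8%, beside 17.0% of all tested genes) and above it in FARS2 (1 gene, beside 13.4%). These shares of the mitochondrial list were near or under those of all tested genes.

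IARS2, the mitochondrial isoleucine enzyme (ENSG00000067704.9, chr1:220094102-220148041, hg38), had the lowest fold change and the smallest p of all 36 genes. It was at 311.7, 263.4 and 287.0 CPM in control and at 160.3, 174.2 and 130.1 in knockdown. The groups were far apart, with the highest knockdown library well under the lowest control library. IARS2 fell 1.86-fold. Its mean was 287 ± 24.1 CPM in control and 155 ± 22.5 CPM in knockdown (SD, n = 3), with a log2 fold change of -0.89 (SE 0.143, edgeR adjusted p 0.00887, and 0.00013 with the block). It was called whichever library was left out (adjusted p 0.0135 to 0.034). Only 0.0968% of the 31-base words in its annotated transcripts occur exactly in transcripts of another gene, and inexact copies were not examined.

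LARS2, which charges mitochondrial leucine tRNAs, was at 184.9, 150.7 and 148.6 CPM in control and at 137.3, 123.2 and 108.4 in knockdown, without overlap. Its log2 fold change of -0.39 was called only with the block (adjusted p 0.125 without and 0.0102 with it). MARS2, the mitochondrial methionine enzyme, was at 69.73, 59.18 and 43.79 CPM in control and at 39.84, 42.96 and 36.36 in knockdown. The highest knockdown library was just under the lowest control library, and the log2 fold change was -0.53 (adjusted p 0.103, and 0.00737 with the block). Without control replicate 3 it passed the threshold (0.0492). FARS2, the single-chain mitochondrial phenylalanine enzyme, was at 19.63, 15.59 and 18.07 CPM in control and at 21.95, 22.55 and 21.66 in knockdown, with a log2 fold change of 0.31 that was called in neither fit (adjusted p 0.233, and 0.0817 with the block).

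The other mitochondrial genes lay closer to 0 and were called in neither fit. VARS2, SARS2 and TARS2 had log2 fold changes of -0.24, -0.24 and -0.22, and EARS2 had -0.11. AARS2, CARS2, NARS2, PARS2, RARS2 and WARS2 lay between -0.040 for PARS2 and 0.029 for WARS2, and YARS2 was at 0.15. SARS2 was counted least, at 4.244 to 6.868 CPM. EARS2, NARS2, PARS2 and RARS2 moved above 0 with upper-quartile scaling, which raised the median of all tested genes to 0.124.

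**Figure D3:**
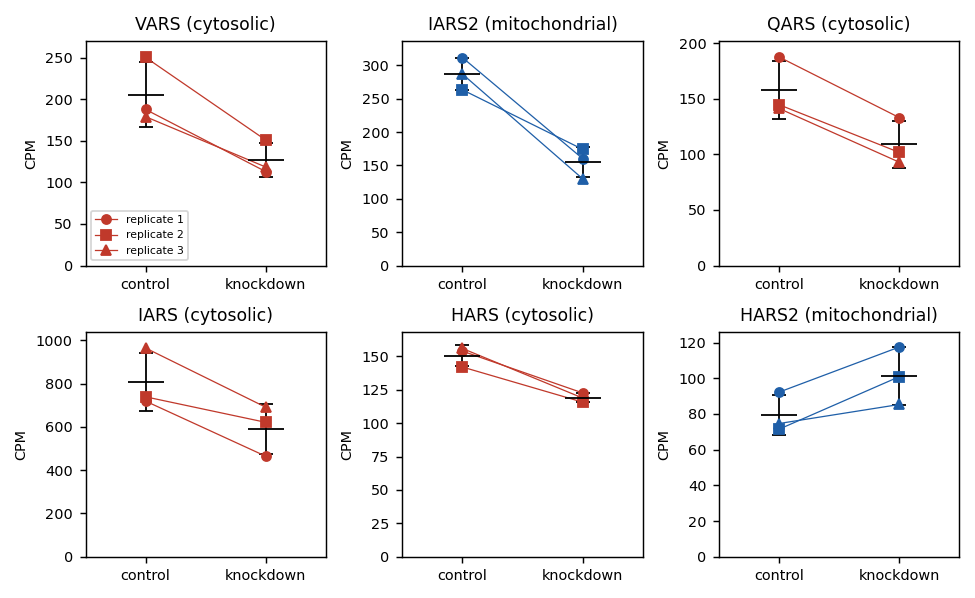
CPM of 6 synthetase genes in each control and knockdown library, with lines joining libraries of the same replicate number and black bars for the mean and SD (n = 3). IARS2 drops from 263.4 to 311.7 CPM in control to 130.1 to 174.2 in knockdown, and HARS2 is the gene of these 6 whose lines all slope upward.

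HARS and HARS2, the cytosolic and mitochondrial histidine enzymes, are neighbours that point away from each other and moved in opposite directions in the block fit. HARS (ENSG00000170445.12, chr5:140673173-140692024, minus strand, hg38) was at 154.0, 142.1 and 156.0 CPM in control and at 122.7, 115.8 and 118.9 in knockdown, without overlap. HARS2 (ENSG00000112855.14, chr5:140691426-140699291, plus strand) was at 92.23, 71.47 and 74.65 CPM in control and at 117.5, 100.9 and 85.31 in knockdown, where only knockdown replicate 3 fell within the control range. Each knockdown library was below its control of the same number for HARS and above it for HARS2. The log2 fold changes were -0.34 for HARS and 0.35 for HARS2, neither of them called without the block (adjusted p 0.0947 and 0.209) and both called with it (0.0201 and 0.0236).

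The RefSeq start sites of HARS and HARS2 lie 85 bases apart, at 140691370 and 140691455 on chromosome 5, and their promoter windows share 184 bases. The 84 bases between the start sites are shown because this one stretch lies upstream of 2 genes that differed in direction. They are printed on the strand of HARS2, with both matches to CCGGAAGT, the core letters bound by factors of the ETS family, in capitals.
HARS2 and HARS (chr5:140691371-140691454, plus strand, GRCh38.p14): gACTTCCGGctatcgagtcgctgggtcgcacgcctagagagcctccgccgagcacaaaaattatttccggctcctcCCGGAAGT
The word was looked for after the stretch had been seen. On either strand it occurred at least once in 4.14% of all windows and at least 2 times in 0.382%. It also lay in windows of CARS, NARS, TARS and WARS and of EARS2 and PARS2. Exons of HARS and HARS2 overlap on opposite strands in some annotated transcripts. Of HARS exon bases, 18.3% lie opposite WDR55 and HARS2 together, with WDR55 the larger overlap. Of HARS2 exon bases, 17.4% lie opposite HARS. A part of either count could therefore belong to a neighbour.

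For 13 amino acids the cytosolic and mitochondrial enzymes have matching symbols. These were compared within each library, by the log2 ratio of the mitochondrial to the cytosolic CPM. FARS2, EARS2 and PARS2 have no member of matching symbol and were left out. For histidine the ratio was -0.740, -0.991 and -1.063 in control and -0.063, -0.200 and -0.479 in knockdown. Every knockdown library was above every control library, by 0.684 on average, and histidine was the only amino acid of the 13 whose groups did not overlap. Its differences within the 3 replicate pairs were 0.677, 0.791 and 0.584. Phenylalanine, outside the 13, would not overlap either for FARS2 over FARSA. Every knockdown library was above every control library for FARS2 and below every control library for FARSA. For isoleucine, where both genes were lower, the ratio was -1.206, -1.488 and -1.749 in control and -1.534, -1.834 and -2.409 in knockdown, with pair differences of -0.328, -0.346 and -0.660. In all 3 pairs the difference was above 0 for 7 amino acids (alanine, asparagine, cysteine, histidine, tryptophan, tyrosine and valine) and below 0 for 2 (isoleucine and leucine), and its sign was mixed for the other 4. For valine the pair differences were 0.448, 0.497 and 0.408. These ratios are given as a description: an exact permutation test of a single ratio cannot go below p = 0.1 without pairing or 0.25 with it in this design, so it was not used.

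Several cytosolic synthetases also differed strongly between replicates of the same group. Replicate 3 was the highest library in both groups for 10 of 20 cytosolic and 0 of 16 mitochondrial genes, against 12.6% of all tested genes, a pattern noticed in the data and then counted. SARS, the serine enzyme, was at 238.2, 247.5 and 440.0 CPM in control and at 197.6, 258.3 and 372.0 in knockdown. Its replicates differed more from each other than its groups did, and SARS was not called with the block (adjusted p 0.334). GARS, which charges glycine tRNA in both compartments, was at 279.9, 366.9 and 461.4 CPM in control and at 178.4, 286.6 and 406.5 in knockdown. AARS, the alanine enzyme, was at 633.3, 768.4 and 1115 CPM in control and at 460.3, 598.3 and 876.4 in knockdown. In GARS and AARS the groups overlapped, yet each knockdown library was below the control library of the same number.

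The ratio of replicate 3 to replicate 1 was at least 1.5 in both groups for AARS, CARS, GARS, SARS and YARS, for 0 mitochondrial genes and for 5.35% of all tested genes. Its median was 1.29 in control and 1.24 in knockdown for cytosolic genes, and 0.892 and 0.855 for mitochondrial genes. Of the 26 amino acid response genes, 18 reached 1.5 in both groups, with medians of 1.92 and 1.96. ATF4 itself was at 467.7, 549.3 and 890.1 CPM in control and at 399.5, 558.0 and 757.1 in knockdown. The 7 cytosolic genes with a TGATGNAA match all had a ratio above 1 in both groups, with medians of 1.45 in control and 1.73 in knockdown. Of the 9 cytosolic genes whose windows lack it, 3 had ratios above 1 in both groups, with medians of 0.822 and 0.943. For all tested genes the medians were 1.01 in control and 0.986 in knockdown, and the share above 1 in both groups was not counted. These counts describe libraries of 2 replicate numbers, and the part of culture or library preparation in them was not tested. The median log2 fold change (knockdown minus control) was -0.349 for the 7 genes with the word and -0.363 for the 9 whose windows lack it.

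**Figure D4:**
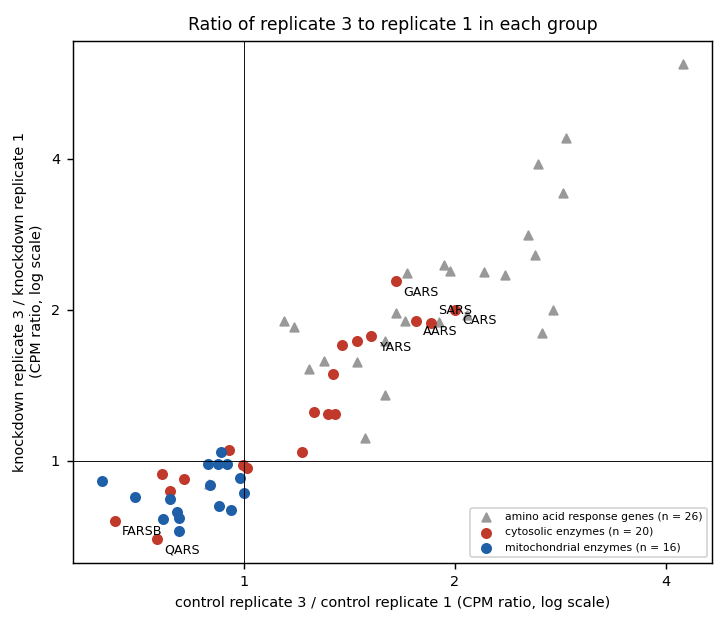
CPM ratio of replicate 3 to replicate 1 in control (horizontal) and in knockdown (vertical), on log scales, for 20 cytosolic enzymes, 16 mitochondrial enzymes and 26 amino acid response genes. The mitochondrial genes gather near or below 1 with medians of 0.892 and 0.855, while CARS, SARS, AARS, GARS and YARS reach at least 1.5 on both axes, among the response genes.

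Genes of the amino acid response moved in both directions. Of the 26, 1 was called lower and 0 higher, with a median log2 fold change of -0.220, and with the block 9 were lower and 2 higher. The share called lower was 3.85% beside 4.88% of all tested genes, and with the block 34.6% beside 14.9% lower and 7.69% beside 11.2% higher. PSAT1, an enzyme of serine synthesis, fell from 252.1, 354.2 and 486.6 CPM in control to 57.67, 100.7 and 141.5 in knockdown (log2 fold change -1.87, SE 0.331, edgeR adjusted p 0.0129). Every knockdown library was below every control library, and the call was lost without knockdown replicate 2 (0.0649). PHGDH, the first enzyme of that pathway, had a log2 fold change of -0.86 and ASNS, asparagine synthetase, of -0.73, and both were called with the block only (adjusted p 6.65e-05 and 0.000406). PPP1R15A, which directs the removal of the phosphate from eIF2, had a log2 fold change of 0.81, called with the block only (0.00494). ATF4, at -0.15, and EIF2AK4, at -0.25, were called in neither fit (block adjusted p 0.363 and 0.0761).

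Other genes of aminoacylation and of tRNA delivery were called about as often as genes at large. Of 22 listed, 21 were tested, with a median log2 fold change of -0.108, 1 called lower and 0 higher, and with the block 3 lower and 1 higher. The lower shares, 4.76% and 14.3% with the block, lay beside 4.88% and 14.9% of all tested genes, and the higher share with the block, 4.76%, beside 11.2%. TSFM, the mitochondrial elongation factor that recharges the tRNA carrier TUFM, fell from 64.68, 52.75 and 55.55 CPM to 41.18, 39.96 and 36.82 (log2 fold change -0.55, adjusted p 0.0387). That call held in 1 of the 6 fits that left out a library (adjusted p up to 0.156) and was lost with upper-quartile scaling (0.0678), where TARSL2 was called instead (0.0258). DTD1, which removes D-amino acids from tRNA, had a log2 fold change of -0.59 (adjusted p 0.0535 without and 0.003 with the block). TARSL2, a second cytosolic threonine enzyme, was at 55.33, 37.90 and 39.79 CPM in control and at 87.01, 75.21 and 58.02 in knockdown. Its groups did not overlap, in the direction opposite to TARS, and it rose by a log2 of 0.73 with the block (adjusted p 0.0559 without and 0.000486 with it). TARS itself was at 530.9, 465.0 and 642.0 CPM in control and at 452.9, 504.8 and 471.8 in knockdown and was called in neither fit.

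Among 38 genes of tRNA transcription and maturation, 2 were called lower and 0 higher, with a median log2 fold change of -0.157, and with the block 6 were lower. These shares, 5.26% and 15.8%, were near those of all tested genes (4.88% and 14.9%). POLR3K, a small subunit of RNA polymerase III, which transcribes tRNA genes, fell from 50.64, 36.77 and 37.11 CPM to 20.88, 14.79 and 18.27. The highest knockdown library was far under the lowest control library, and the log2 fold change was -1.21 (SE 0.19, edgeR adjusted p 0.00816, called whichever library was left out). POP5, a protein of the RNase P complex that trims tRNA 5′ ends, fell by a log2 of 0.59 (adjusted p 0.0465), a call that held in 1 of the 6 fits that left out a library and was lost with RLE (0.056) and upper-quartile scaling (0.0713). MAF1, the repressor of RNA polymerase III, had a log2 fold change of -0.37 and was called with the block only (0.0157).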

How the data were processed

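The deposited table gave raw counts, as whole numbers, for each gene in each library. The tools named, per the submitters' processing notes, were bcl2fastq, STAR 2.5, featureCounts, Subread 1.6.5 and edgeR 3.20.8, with the hg38 build. The strand setting and the annotation release are not given in the sources used here. Trizol extraction and a TruSeq RNA kit were used, per the labels' protocols.

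The counts were tested here with edgeR 4.0.16 in R 4.3.3: TMM scaling, filterByExpr by group, and a two-sided quasi-likelihood F test of knockdown against control with Benjamini-Hochberg adjustment over all 21101 tested genes. An adjusted p under 0.05 was a call. CPM used TMM-scaled totals. Per-length levels divided CPM by the exon length in the table. The scripts were tested on simulated counts. Alternatives were RLE and upper-quartile scaling, 2 other filters, DESeq2 1.42.0, limma-voom (limma 3.58.1), a replicate block and leaving out each library. P-values measure the spread between these libraries.

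The titles number libraries 1 to 3 in both groups. Deviations from group means, over tested genes, correlated at 0.637, 0.426 and 0.437 for the same number and at -0.429 to 0.064 for different numbers. Libraries of the same number were therefore treated as pairs, though the titles state no pairing. Deviations sum to 0 within a group, so these correlations depend on each other. With the block the biological coefficient of variation was 11.9% in place of 20.8%, on 2 residual degrees of freedom in place of 4. Calls in the block fit rest on those 2 degrees of freedom.

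The members and gene lists were chosen with earlier results of these data known. All members are named, with up to 3 genes of smallest p from each other list and genes a result turns on. ASNS, ATF4, EIF2AK4, AIMP1, AIMP2 and EEF1E1 were added for their roles, after their values were seen. Some genes of these lists are not reported here. Exon overlaps came from the table's coordinates, and shared 31-base words from GENCODE 29 transcripts.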

Additional observations from a re-analysis of the deposited data

How the results depend on the processing

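Counts of calls depended on the fit more than directions did. With the replicate block 2358 genes were called higher and 3148 lower in place of 574 and 1029, and the calls were 13 lower cytosolic, 3 lower and 1 higher mitochondrial, 4 other aminoacylation, 6 tRNA transcription and maturation and 11 amino acid response genes. Upper-quartile scaling raised the median of all tested genes to 0.124 and called 894 genes higher and 722 lower. There the cytosolic median was -0.223 with 0 lower calls, the mitochondrial median was 0.084, and 1 tRNA transcription and maturation gene was called. EARS2, NARS2, PARS2 and RARS2 then had log2 fold changes of 0.009, 0.088, 0.081 and 0.092. With no filter on low counts 1336 genes were higher and 1812 lower, with 4 lower cytosolic, 2 lower mitochondrial, 3 other aminoacylation and 10 amino acid response calls. With a mean of at least 1 CPM 617 genes were called higher and 865 lower. The calls included 0 lower cytosolic, 2 other aminoacylation and 1 tRNA transcription and maturation genes. The mitochondrial median was then 0.013, and NARS2, PARS2 and RARS2 were at 0.017, 0.009 and 0.020. DESeq2 called 834 genes higher and 1490 lower, among them 2 lower cytosolic, 3 other aminoacylation and 2 amino acid response genes. RLE scaling called 608 genes higher and 948 lower, with 1 tRNA transcription and maturation gene among them. Over the 6 fits that left out a library, 168 to 500 genes were higher (lowest without knockdown replicate 2) and 329 to 923 lower. Those fits gave 0 to 1 lower cytosolic, 1 to 2 lower mitochondrial, 0 to 3 other aminoacylation, 1 to 2 tRNA transcription and maturation and 0 to 1 amino acid response calls. The cytosolic median was -0.435 to -0.195 and the mitochondrial median -0.108 to 0.023. The log2 fold change of SARS was -0.439 to 0.179, of AARS2 -0.100 to 0.127, of CARS2 -0.104 to 0.167, of NARS2 -0.128 to 0.036, of PARS2 -0.112 to 0.070, of RARS2 -0.159 to 0.086 and of WARS2 -0.083 to 0.138. None of these 7 genes was called in any of them. Of the cytosolic members, 0 were called higher in any fit run. In the edgeR fit without the block, 0 of them were higher at an unadjusted p under 0.05. Apart from what their construction shows, the cause of these differences was not tested.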

Other observations

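The 6-base word CACGTG, an E-box that MYC binds, was counted in the same promoter windows as the word of ATF4. It lay in 4 of 18 mitochondrial windows (22.2%), of CARS2, EARS2 and MARS2, in 1 of 21 cytosolic windows (4.76%), of IARS, and in 7.26% of all windows. EARS2 holds it in 2 windows, so these 4 windows stand for 3 genes. MARS2 fell in the block fit, with a log2 fold change of -0.51 (adjusted p 0.00737), and CARS2 and EARS2 were called in neither fit. IARS was the only member with both words.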
